A study of Mus musculus with 12 samples.

Results

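The 7 genes Piezo1, Trpv2, Trpv4, Trpm7, Trpm2, Tmem63a and Tmem63b encode ion channels with reported roles in mechanosensing, and they were taken by symbol from the 14098 genes of the deposited expression table. All 7 were found there, and all 7 passed the filter on low values (at least 1 TPM in at least 2 libraries), which left 11194 genes for testing. TPM divide the reads of a gene by its length and scale each library to the same total, so that levels can be compared between genes. RNA was sequenced from BMDM, macrophages grown in culture from the bone marrow of male and female C57Bl/6 mice aged 8 to 10 weeks, either wild type (WT, Camkk2+/+) or Camkk2-/- (KO), in medium with L929-conditioned medium. All BMDM were encapsulated in a collagen-hyaluronic acid hydrogel and recovered from it with collagenase IV. In the soft group the gel was left as cast, in the soft+IL-4 group the soft gel received the cytokine IL-4, and in the stiff group the gel was crosslinked 24 h after encapsulation with UV light and the photoinitiator Irgacure, after which culture went on for 48 h. The stiff gel also held more collagen than the soft gel and was the only gel exposed to UV and photoinitiator, so that stiffness cannot be told apart from these. Each of the 6 groups (WT soft, WT soft+IL-4, WT stiff, KO soft, KO soft+IL-4, KO stiff) had 2 libraries from biological replicates, 12 in all. Whether male and female cells were mixed within a library is not given in the sources used here. The labels give the mice as Camkk2-/- and name no Cre restricted to a cell type.

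Some values of the whole set bear on what follows. TPM keep no read numbers, and sequencing depth is therefore unknown and no counting error can be given. Camkk2, the deleted gene, was listed at 8.54 to 46.6 TPM and went against the genotype label in 3 libraries. The library labelled WT soft 2 held 11.7 TPM, where the other 5 WT libraries held 23.3 to 44.2 TPM, while the libraries labelled KO soft 1 and KO stiff 1 held 46.6 and 37.7 TPM, where the other 4 KO libraries held 8.54 to 11.5 TPM. Genotype comparisons below are therefore comparisons of labels, and the comparisons of matrix and of IL-4 were also made on the average over the genotypes, whose log2 fold change does not depend on those labels, while its error comes from the spread within the labelled groups. Of the 4 libraries of each condition, 2 soft, 2 soft+IL-4 and 3 stiff libraries held Camkk2 at 23.3 TPM or more. The 2 WT stiff libraries differed most from each other (r = 0.951, SD of the log2 difference 0.67, against r of 0.984 or more and an SD of 0.29 to 0.38 in the other groups), and all comparisons share this spread. The 10 macrophage markers were at 1 TPM or more in every library. Markers of other blood and stromal cells summed to at most 26.6 TPM (neutrophils), 21.8 TPM (dendritic cells) and 12.5 TPM (stromal cells), and the remaining lists to at most 3.81 TPM. Among the stromal markers Pecam1 reached 11.6 TPM, and the others 0.389 TPM at most. Among the dendritic cell markers Ccr7 reached 19.1 TPM, and the others 2.56 TPM at most. The share of genes listed at 0 was 10.7 to 13.4% in the libraries numbered 1 and 5.90 to 7.54% in those numbered 2.

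PIEZO1 is a large trimeric cation channel that opens when the membrane is stretched and lets calcium into the cell. TRPV2 and TRPV4 are calcium-permeable channels of the vanilloid TRP family, which respond to heat, swelling and lipids, and TRPV2 is prominent in macrophages, where it has been linked to phagocytosis. TRPM7 joins a channel for magnesium, zinc and calcium to a kinase domain, TRPM2 is opened by intracellular ADP-ribose during oxidative stress, and TMEM63A and TMEM63B belong to the OSCA/TMEM63 family of stretch-activated channels. Calcium that enters through such channels binds calmodulin, which activates the phosphatase calcineurin, the NFAT transcription factors and the calmodulin-dependent kinases, among them the kinases that CAMKK2 acts on.

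The promoters of the 4 genes that the results turn on are shown as the 300 bases around the RefSeq start site (GRCm38.p6, 5′ to 3′ on the strand of the gene), with CG dinucleotides in capitals. Trpv2, Trpm2 and Trpm7 were the channel genes with a lower level after IL-4, and Piezo1 is the best-known mechanosensor among them. The windows lie at chr11:62574236-62574535 (plus strand) for Trpv2, chr10:77969823-77970122 (minus strand) for Trpm2, chr2:126876212-126876511 (minus strand) for Trpm7 and chr8:122551280-122551579 (minus strand) for Piezo1.
Trpv2: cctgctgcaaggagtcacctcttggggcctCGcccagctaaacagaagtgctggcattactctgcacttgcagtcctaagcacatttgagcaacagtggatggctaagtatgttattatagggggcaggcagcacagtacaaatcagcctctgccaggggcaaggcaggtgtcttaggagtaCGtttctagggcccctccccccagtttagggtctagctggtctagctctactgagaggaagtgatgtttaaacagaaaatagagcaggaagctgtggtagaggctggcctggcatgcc
Trpm2: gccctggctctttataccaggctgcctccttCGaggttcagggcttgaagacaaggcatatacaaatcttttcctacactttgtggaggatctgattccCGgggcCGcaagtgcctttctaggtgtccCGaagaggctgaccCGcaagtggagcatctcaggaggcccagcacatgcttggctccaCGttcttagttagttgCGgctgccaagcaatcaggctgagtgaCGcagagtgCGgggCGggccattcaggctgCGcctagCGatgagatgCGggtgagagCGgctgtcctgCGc
Trpm7: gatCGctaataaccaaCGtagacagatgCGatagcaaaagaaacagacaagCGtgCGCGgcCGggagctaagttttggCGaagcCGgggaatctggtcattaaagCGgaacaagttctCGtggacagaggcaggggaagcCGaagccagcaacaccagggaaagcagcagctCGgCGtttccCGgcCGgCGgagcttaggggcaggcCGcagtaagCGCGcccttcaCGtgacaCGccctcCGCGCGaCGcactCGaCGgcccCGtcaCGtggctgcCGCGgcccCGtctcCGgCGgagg
Piezo1: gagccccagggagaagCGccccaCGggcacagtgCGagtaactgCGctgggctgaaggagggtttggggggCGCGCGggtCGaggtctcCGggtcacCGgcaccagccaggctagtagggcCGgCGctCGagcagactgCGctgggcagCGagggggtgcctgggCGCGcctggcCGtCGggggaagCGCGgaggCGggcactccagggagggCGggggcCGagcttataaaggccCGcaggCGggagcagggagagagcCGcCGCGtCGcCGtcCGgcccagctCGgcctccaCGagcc

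The Trpv2 window held 2 CG dinucleotides and the Trpm2 window 15, against a median of 7 over 32851 RefSeq promoter windows of this length. The windows of Piezo1 and Trpm7 held 34 and 35, and those of Trpv4, Tmem63a and Tmem63b 30, 33 and 34. Trpv2, the most abundant channel gene, thus had the fewest CG of the 7. RefSeq gave Trpv2 2 further start sites, with 2 and 7 CG in their windows. Letters read on both strands included the STAT6 pattern, TTC and GAA with 4 bases between them, present in 6.95% of all windows, and the related GAS pattern with 3 bases between them, present in 8.30%. None of the 9 windows of the 7 genes held either pattern, which says only that these letters are not in these windows. The GAGGAA core of PU.1, a transcription factor of myeloid cells, occurs in 28.3% of all windows and was found in the Trpv2 window, starting at position -14 from the start site, and in the overlapping window of the second Trpv2 start site. No other channel gene held it. The TEAD pattern CATTCC, in 14.7% of all windows, occurred in the window of the third Trpv2 start site alone.

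The channel genes spanned a wide range of levels, which the plot of TPM by library shows. Trpv2 was the most abundant (mean 86.9 ± 12.4 TPM, SD, n = 12), higher than Piezo1 in 12 of 12 libraries and above 86.8% of the tested genes. Piezo1 followed (44.4 ± 5.43 TPM) and was above Tmem63a in 12 of 12 libraries. Tmem63a (18.4 ± 1.86 TPM), Trpm7 (17.0 ± 2.35 TPM) and Tmem63b (16.9 ± 2.21 TPM) lay close together. Tmem63a was above Trpm7 in 11 of 12 libraries, with a mean log2 ratio of 0.12 that was about as large as its SD of 0.11, and Trpm7 was above Tmem63b in 7 of 12, a difference in level well within the spread. Trpv4 was lower (6.71 ± 2.26 TPM) and Trpm2 lowest (0.959 ± 0.537 TPM), each below the preceding gene in 12 of 12 libraries. At the threshold of 1 TPM, 6 of the 7 genes were expressed in all 12 libraries and Trpm2 in 7 of 12, none of which was an IL-4 library. Trpv2 and Piezo1 together made up most of the summed TPM of the 7 genes, with 40.7 to 48.9% from Trpv2 and 18.2 to 27.4% from Piezo1.

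**Figure D1:**
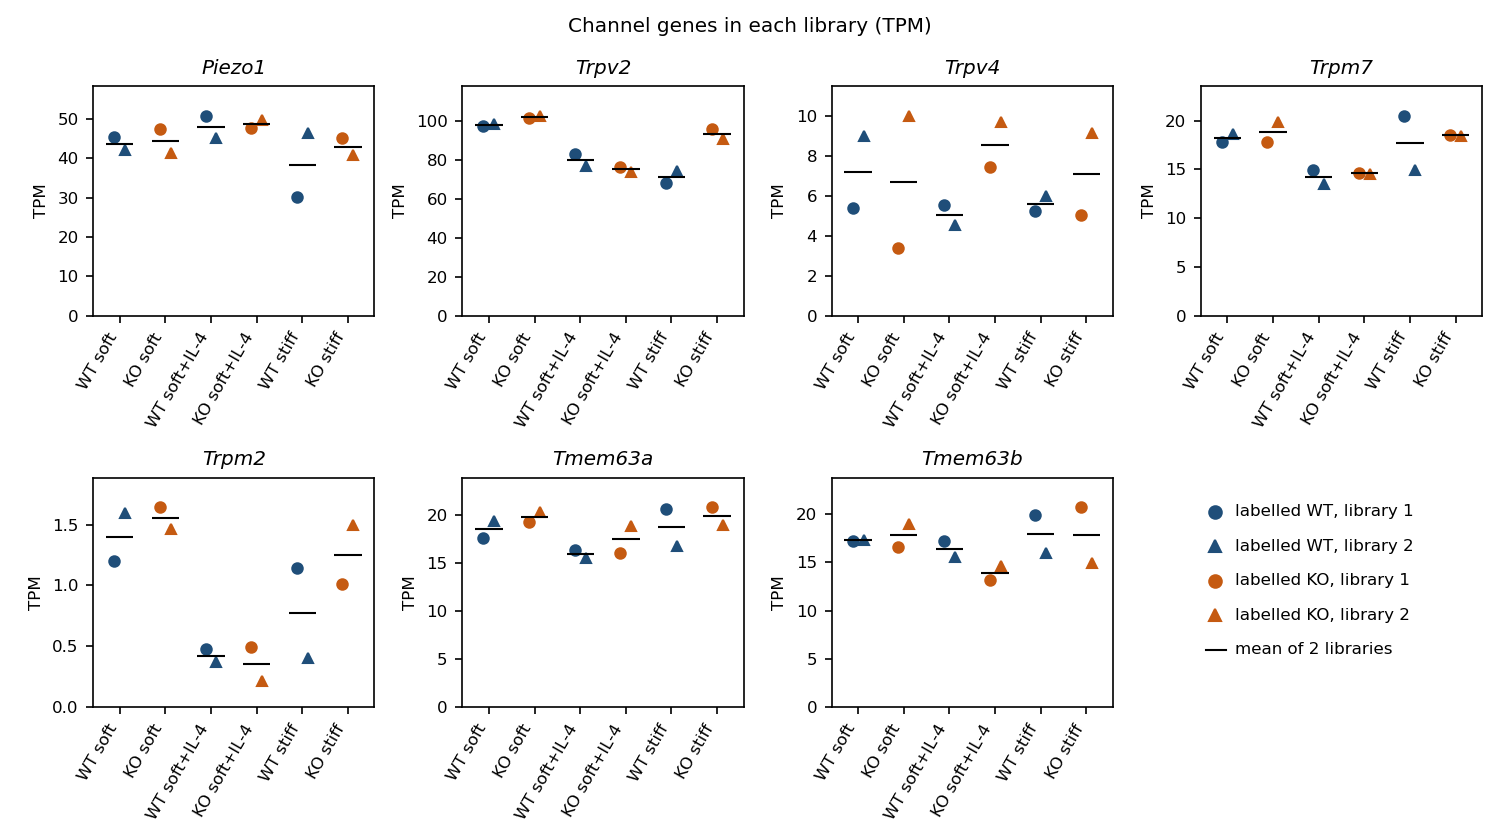
Level of each channel gene in each library. The y axis is TPM from 0, the x axis the 6 groups as labelled, circles and triangles are the libraries numbered 1 and 2, colours the labelled genotype, and bars the mean of 2 libraries. Trpv2, Trpm7 and Trpm2 lie lower in all 4 soft+IL-4 libraries than in all 4 soft libraries, and Trpv2 in WT stiff lies below WT soft and KO stiff.

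Against the soft matrix, the stiff matrix left 6 of the 7 channel genes without a detectable change when the genotypes were averaged, and Trpv2 was lower. Piezo1, the channel most often named as a stiffness sensor, was at 41.4 to 47.5 TPM in the 4 soft libraries and 30.3 to 46.4 TPM in the 4 stiff libraries. DE genes (adjusted p under 0.05 and absolute log2 fold change of at least 1) made up 1.35% of all genes tested, and 0 of the 7 channel genes were among them. With an adjusted p under 0.05 and no minimum fold change, a rule met by 6.47% of all genes tested, 1 of the 7 passed, Trpv2, against 3.79% of genes that were lower by this rule. A count of 1 in 7 is too small to be read against that background. The median log2 fold change of the 7 genes was -0.05, and that of all genes tested 0.00174.

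Trpv2 was at 97.6 and 98.7 TPM in WT soft, 102 and 103 TPM in KO soft, 68.4 and 74.5 TPM in WT stiff, and 96.3 and 91.1 TPM in KO stiff. All 4 stiff libraries lay below all 4 soft libraries, as they did for 4.54% of all genes, but the KO stiff libraries were only slightly lower. Averaged over the genotypes, the log2 fold change was -0.29 (SE 0.058, limma adjusted p = 0.0199). In WT BMDM alone it was -0.45 (SE 0.083, limma adjusted p = 0.00866), where 1 of the 7 genes passed against 10.6% of all genes tested and DE genes made up 3.97%. In KO BMDM it was -0.13 (limma adjusted p = 1), with 0 of 7 channel genes passing (0 also at an unadjusted p under 0.05) and 0.0447% of all genes called DE. The call of the averaged comparison rested on each soft and each KO stiff library. Without WT soft 1, WT soft 2, KO soft 1, KO soft 2, KO stiff 1 or KO stiff 2 the limma adjusted p was 0.0653, 0.0782, 0.0578, 0.0717, 0.0632 and 0.0808, at log2 fold changes of -0.27 to -0.31. Leaving out all 3 libraries whose Camkk2 level went against the label gave -0.31 with a limma adjusted p of 0.367, in a fit in which 0.563% of all genes passed. The WT comparison lost its call without WT soft 1 or WT soft 2 (limma adjusted p = 0.0543 and 0.0642, log2 fold change -0.46 and -0.45).

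Trpv2 was also the channel gene that differed between the labelled genotypes on the stiff matrix. The difference KO stiff against WT stiff was 0.39 on the log2 scale (SE 0.083, limma adjusted p = 0.0299), and it was the only 1 of the 7 that passed against 4.93% of all genes tested, with DE genes at 1.98%. The library labelled KO stiff 1, which held Camkk2 at 37.7 TPM, was at 96.3 TPM of Trpv2, above KO stiff 2. The call was lost whenever any library other than WT stiff 1 or WT stiff 2 was left out (limma adjusted p 0.0518 to 0.207), and without the 3 libraries against their label the difference was 0.35 (limma adjusted p = 0.415). The interaction of genotype and stiffness, which tests whether the response to the stiff matrix differed between the labels, was 0.33 for Trpv2 (limma adjusted p = 0.314) and did not pass, as 0.974% of all genes tested did and 0.67% did as DE genes. Without WT stiff 2 it was 0.39 and passed, as did many more of all genes tested. On the soft matrix and with IL-4, 0 of the 7 channel genes passed by limma in either comparison (0 also at an unadjusted p under 0.05), as did 0 of all genes tested (130 and 233 at an unadjusted p under 0.05). The differences of Trpv2 there were 0.06 and -0.09 on the log2 scale.

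The summed TPM of the 10 macrophage markers moved in parallel with Trpv2. It was 52395 to 58856 in the soft libraries, 24560 to 26454 with IL-4, 24544 to 25592 in WT stiff and 46920 to 49462 in KO stiff. The sum was mostly Lyz2, the lysozyme of myeloid cells, at 19076 to 51543 TPM, and the markers did not all move alike. Over the 12 libraries Cd68 (1813 to 2123 TPM), Itgam (299 to 414 TPM) and Spi1 (557 to 782 TPM) varied less than Lyz2. Fcgr1 (18.7 to 150 TPM), Cd14 (151 to 827 TPM) and Mertk (6.65 to 23.0 TPM) varied more. With IL-4, 7 of the 10 markers were lower with an adjusted p under 0.05, and with the stiff matrix 4, both with the genotypes averaged. In bulk RNA, fewer cells of a type cannot be told apart from less RNA per cell, and the part of this shift in the Trpv2 result was not tested.

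Piezo1 did not show a detectable change in any of the comparisons with all 12 libraries. It was at 45.5 and 42.0 TPM in WT soft, 47.5 and 41.4 TPM in KO soft, with IL-4 50.8 and 45.1 TPM in WT and 47.6 and 49.8 TPM in KO, 30.3 and 46.4 TPM in WT stiff, and 45.3 and 40.8 TPM in KO stiff. The library WT stiff 1 stood apart at 30.3 TPM, and the soft, soft+IL-4 and stiff libraries overlapped. The averaged log2 fold change of the stiff matrix was -0.13 (95% interval -0.41 to 0.15) and that of IL-4 0.13 (-0.15 to 0.41), so that a change of more than about 0.41 in either direction on the log2 scale lay outside both intervals. In WT BMDM alone the stiff matrix gave -0.22 (-0.61 to 0.18). Without WT stiff 1 the averaged value for the stiff matrix was 0.02 and the WT value 0.08, the opposite sign. Without WT stiff 2 they were -0.28 and -0.52, and both passed, but many more of all genes tested passed in that fit too. Piezo1 is encoded at chr8:122481698-122551329 on the minus strand (GRCm38, GENCODE vM21), and overlaps Ctu2 on the opposite strand by 2441 bases. Ctu2 had a mean of 8.68 TPM, and the libraries were strand-specific.

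IL-4, the cytokine of alternative activation, was followed by lower levels of 3 of the 7 channel genes when the genotypes were averaged, namely Trpv2, Trpm7 and Trpm2. All 3 were lower in all 4 IL-4 libraries than in all 4 soft libraries, as 21.2% of all genes were. By the DE rule, which 4.35% of all genes met, 0 of the 7 channel genes passed. With an adjusted p under 0.05 and no minimum fold change, 3 of the 7 passed, all lower, against 22.9% of all genes in either direction and 13.1% lower. The IL-4 response was broad, so that this is described and not set apart from the background. The median log2 fold change of the 7 genes was -0.20, and that of all genes -0.05.

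With IL-4 Trpv2 was at 83.3 and 77.2 TPM in the WT libraries and 76.7 and 73.9 TPM in the KO libraries. On average over the genotypes this was a log2 fold change of -0.36 (SE 0.058, limma adjusted p = 0.00208), and the adjusted p stayed under 0.05 when each of the 12 libraries was left out in turn, at 0.000347 to 0.0138. Without the 3 libraries against their label it was -0.36 with a limma adjusted p of 0.0702. The values within each genotype were -0.29 in WT (limma adjusted p = 0.0571) and -0.44 in KO (limma adjusted p = 0.0101). KO was the genotype in which 1 of 7 channel genes passed, against 10.3% of all genes and 3.65% called DE, and in WT 0 of 7 passed, against 10.7% and 3.76%, with 3 of 7 at an unadjusted limma p under 0.05. In WT, Trpv2 passed with no filter on low values (limma adjusted p = 0.0428). It also passed when WT stiff 1 or WT stiff 2, which are in neither group, was left out, as did many more of all genes tested. The KO call was lost without KO soft 1, KO soft 2, KO soft+IL-4 1 or KO soft+IL-4 2 (limma adjusted p = 0.0542, 0.0642, 0.0670 and 0.0909, log2 fold changes -0.41 to -0.46). The difference between the genotypes in the IL-4 response of Trpv2 was -0.15 (95% interval -0.41 to 0.11) and did not pass, nor did any of the 7 or of all genes tested by limma (0 and 165 at an unadjusted p under 0.05).

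Trpm7, the channel kinase, was at 17.8 and 18.6 TPM in WT soft, 17.8 and 19.8 TPM in KO soft, with IL-4 14.9 and 13.5 TPM in WT, and with IL-4 14.6 and 14.6 TPM in KO. All 4 IL-4 libraries lay below every soft library. Its averaged log2 fold change was -0.34 (SE 0.10, limma adjusted p = 0.0379), with -0.34 in WT and -0.34 in KO, neither of which passed alone (limma adjusted p = 0.176 in both). When WT stiff 1 or WT stiff 2 was left out of the model, both passed at unchanged log2 fold changes. Many more of all genes tested then passed too. The averaged call was close to the threshold, and was lost with no filter on low values (limma adjusted p = 0.0515). It remained without WT stiff 1 or WT stiff 2, and was lost without any of the other 10 libraries, at a limma adjusted p of 0.0574 to 0.118 and log2 fold changes of -0.30 to -0.38, and without the 3 libraries against their label (-0.36, limma adjusted p = 0.220). On the stiff matrix Trpm7 was at 20.5 and 14.95 TPM in WT and 18.6 and 18.4 TPM in KO. The range in WT stiff covered that of both soft groups, and the averaged difference was -0.04 (95% interval -0.27 to 0.19). It was 0.07 without WT stiff 2.

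Trpm2, the ADP-ribose-gated channel, had the lowest level of the 7 genes and the largest log2 fold change with IL-4. It was at 1.20 and 1.60 TPM in WT soft, 1.64 and 1.47 TPM in KO soft, with IL-4 0.477 and 0.368 TPM in WT, and with IL-4 0.494 and 0.216 TPM in KO. Every IL-4 library was under 0.5 TPM and every soft library above 1 TPM. The averaged log2 fold change on the scale of TPM + 1 was -0.84 (SE 0.20, limma adjusted p = 0.0136). It was -0.75 in WT and -0.92 in KO (limma adjusted p = 0.124 and 0.0690). Both passed at unchanged log2 fold changes when WT stiff 1 or WT stiff 2 was left out of the model, as did many more of all genes tested. The KO value also passed with no filter on low values (limma adjusted p = 0.0377). This scale understates the change of a gene near 1 TPM. With 0.1 TPM added in place of 1 the value was -1.72, and with 0.5 TPM -1.16, and Trpm2 was then called DE. The averaged change of -0.84 did not pass without WT soft 2 (-0.77, limma adjusted p = 0.0547), without KO soft+IL-4 2 (-0.76, limma adjusted p = 0.0569) and without the 3 libraries against their label (-0.75, limma adjusted p = 0.186). On the stiff matrix, Trpm2 was at 1.14 and 0.405 TPM in WT and 1.01 and 1.49 TPM in KO. The library WT stiff 2 was as low as the IL-4 libraries and the other 3 were not, and the averaged difference was -0.32 (95% interval -0.76 to 0.12, limma adjusted p = 0.423). Trpm2 lies at chr10:77907722-77970563 on the minus strand.

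**Figure D2:**
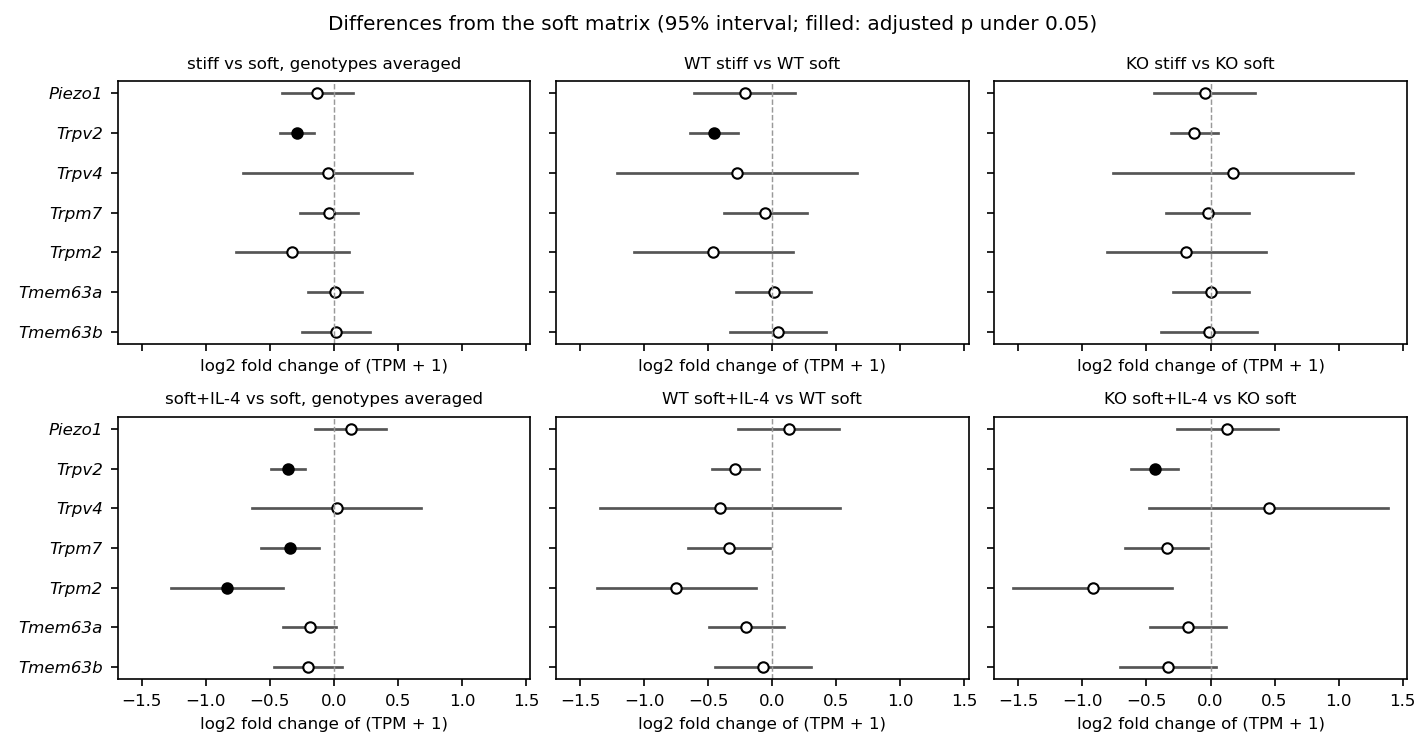
Differences from the soft matrix for each channel gene. The x axis is the log2 fold change of TPM + 1, points are limma estimates with 95% intervals, and filled points have an adjusted p under 0.05. With the genotypes averaged, Trpv2 is filled in both rows and Trpm7 and Trpm2 in the IL-4 row, and Trpv4 has the widest intervals.

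TMEM63A and TMEM63B, the OSCA/TMEM63 members, showed no detectable change. Tmem63a was at 17.6 to 20.3 TPM in the soft, 15.6 to 18.9 TPM in the IL-4 and 16.8 to 20.8 TPM in the stiff libraries, ranges that overlapped. The averaged log2 fold change was 0.01 (95% interval -0.20 to 0.22) on the stiff matrix and -0.19 (-0.40 to 0.02) with IL-4. Tmem63b was at 16.6 to 19.0 TPM in the soft, 13.2 to 17.2 TPM in the IL-4 and 14.9 to 20.7 TPM in the stiff libraries. Its averaged differences were 0.02 (-0.25 to 0.28) and -0.20 (-0.47 to 0.06). A fall with IL-4 of the size seen for Trpm7 lay inside the interval of both genes. Within the stiff matrix, both genes were higher in the libraries numbered 1 than in those numbered 2, in WT and in KO. On the soft matrix both genes were instead lower in the libraries numbered 1, in WT and in KO. There Tmem63a was at 17.6 against 19.4 TPM and 19.3 against 20.3 TPM, and Tmem63b at 17.2 against 17.4 TPM and 16.6 against 19.0 TPM. With IL-4 both were higher in library 1 in WT and lower in KO. The share of genes listed at 0 was higher in the libraries numbered 1 in every group, and its part in these orders was not tested. Tmem63b overlaps Mrpl14, a mitochondrial ribosomal protein gene at a mean of 126 TPM, by 584 bases on the opposite strand.

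The stiff matrix and IL-4 were also compared directly. In WT, 0 of 7 channel genes passed by limma (0 also at an unadjusted p under 0.05), as did 0 of all genes tested (557 at an unadjusted p under 0.05). Trpv2 differed by -0.17 (95% interval -0.35 to 0.02) and Piezo1 by -0.34 (-0.74 to 0.05). Without WT stiff 2 this comparison moved from 0 to 3035 of the genes tested, and Piezo1 (-0.64, limma adjusted p = 0.00559) and Trpm7 (0.50, limma adjusted p = 0.0151) passed, whereas without WT stiff 1 it stayed at 0 genes (96 at an unadjusted p under 0.05). In KO, 0 of 7 passed, where 4.03% of all genes did (1.61% as DE genes), although 2 of 7 had an unadjusted limma p under 0.05. These were Trpv2, at 0.31 (SE 0.083, limma adjusted p = 0.0761), and Trpm2, at 0.73 (SE 0.28, limma adjusted p = 0.209), both higher on the stiff matrix. Trpv2 passed with only the groups compared in the model (limma adjusted p = 0.0424), where 1347 of all genes tested did, against 451 in the main fit. Trpv2 also passed without WT stiff 1 or WT stiff 2, as did many more of all genes tested. The stiff and IL-4 comparisons above share the soft libraries, so that the falls of Trpv2 in both are not independent of each other.

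Trpv4 varied more between libraries than any other channel gene above 1 TPM in all libraries, with a CV of 33.7%, but not with the matrix or with IL-4. It was at 5.38 and 9.02 TPM in WT soft, 3.38 and 10.0 TPM in KO soft, with IL-4 5.54 and 4.55 TPM in WT and 7.46 and 9.70 TPM in KO, 5.23 and 6.00 TPM in WT stiff, and 5.05 and 9.19 TPM in KO stiff. In the 3 groups that hold a library against its label (KO stiff, KO soft and WT soft), the 2 libraries lay far apart. The averaged log2 fold change was -0.05 (95% interval -0.71 to 0.61) on the stiff matrix and 0.02 (-0.64 to 0.68) with IL-4, and both changed sign when some of the libraries were left out. As labelled, the genotype difference was -0.20 on the soft matrix, 0.66 (95% interval -0.27 to 1.59) with IL-4 and 0.25 on the stiff matrix, and none of these passed (limma adjusted p = 1, 1 and 0.808). Without the 3 libraries against their label the soft difference was 0.79 (limma adjusted p = 1).

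Set beside Camkk2, which fell into 2 clusters, the Trpv4 values divided between them. Trpv4 by itself was not in clusters (6.00, 7.46 and 9.02 TPM follow each other in order). The 5 libraries with the least Camkk2, at 8.54 to 11.7 TPM, were the 5 with the most Trpv4, at 7.46 to 10.0 TPM. They were both KO soft+IL-4 libraries, KO soft 2, KO stiff 2 and the library labelled WT soft 2. The other 7 libraries held Camkk2 at 23.3 to 46.6 TPM and Trpv4 at 3.38 to 6.00 TPM, and included the libraries labelled KO soft 1 and KO stiff 1. This was seen by comparing measured levels and not by the labels, so that it is a description and carries no test. No correlation over the 12 libraries is given because of the clusters of Camkk2. Trpv4 (chr5:114622152-114658421, minus strand) and Camkk2 (chr5:122731170-122779409, minus strand) lie on the same chromosome with 8.07 Mb between them.

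**Figure D3:**
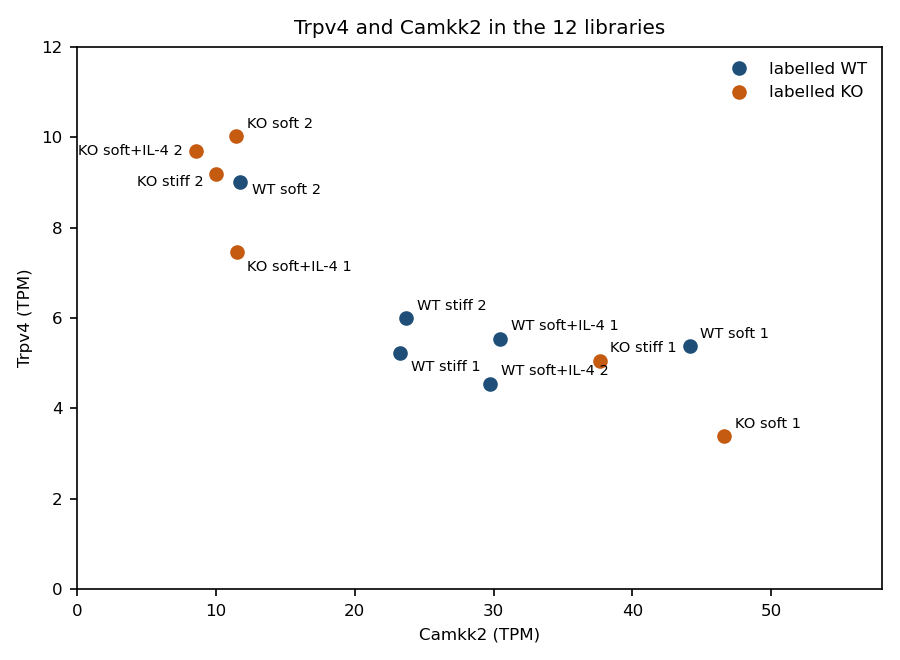
Trpv4 against Camkk2 in the 12 libraries. Both axes are TPM from 0, each point is 1 library with its label, and colours are the labelled genotype. The 5 libraries with Camkk2 at 11.7 TPM or less have Trpv4 of 7.46 TPM or more, and the other 7 have 6.00 TPM or less. The library labelled WT soft 2 is among the 5, and those labelled KO soft 1 and KO stiff 1 are among the 7.

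The genes around these channels were described by lists, whose counts are of genes with an adjusted p under 0.05 and no minimum fold change, genotypes averaged. By this rule 6.47% of all genes tested passed with the stiff matrix (3.79% lower) and 22.9% with IL-4 (13.1% lower), and no list was tested against these shares. Of the fits that left out 1 of the 12 libraries, the number in which a named gene kept its call is given where it was under 12. Of the 30 other candidate mechanosensitive or stretch-linked channels, 17 passed the filter on low values. On the stiff matrix 1 of these 17 was higher and 0 lower, the volume-regulated anion channel subunit Lrrc8b (0.54 on the log2 scale, kept in 5 of 12 fits). With IL-4, 3 were higher and 2 lower. The potassium channel genes Kcnn4 (0.61, kept in 2) and Kcnk6 (0.40) and Lrrc8b (0.51, kept in 10) rose, and the polycystin channel Pkd2 (-0.65, kept in 5) and Lrrc8d (-0.24, kept in 3) fell. With the replicate block Lrrc8d did not pass (limma adjusted p = 0.0625), nor did it with median-of-ratios scaling (limma adjusted p = 0.0965). The median was -0.04 with the stiff matrix and 0.05 with IL-4, against medians of 0.00174 and -0.05 over all genes tested. All genes named from the lists, apart from Nfatc2 and Orai2, were chosen after their values were seen.

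Of the 20 regulators and auxiliary proteins of PIEZO and TRP channels, 16 were tested. On the stiff matrix 0 rose and 2 fell, the PIEZO auxiliary subunit Mdfic (-0.34, kept in 2 of 12 fits) and the phospholipase Plcg2 (-0.46), which consumes the membrane lipid PIP2. Mdfic did not pass with median-of-ratios scaling (limma adjusted p = 0.0720). With IL-4, 1 rose and 4 fell. Pip5k1c, a kinase that makes PIP2, rose (0.43), and Stom (-0.75), Plcg2 (-0.68), Nedd4l (-0.56) and Mdfic (-0.39) fell. Stom encodes stomatin, a membrane protein of the family that tunes PIEZO currents, and Nedd4l a ubiquitin ligase. The medians were -1.14e-05 and 0.05.

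The list of 14 gene symbols for enzymes that make or break ADP-ribose, the ligand of TRPM2, had 11 tested. It held 1 gene under both a current and an older name. With the stiff matrix 0 passed by limma (0 also at an unadjusted p under 0.05), and with IL-4, Adprhl2, an ADP-ribose hydrolase, rose (0.40, kept in 6 of 12 fits) and Bst1, an ectoenzyme that makes ADP-ribose from NAD, fell (-0.89). The medians were -0.02 and -0.18. Of the 16 magnesium and zinc transporters beside TRPM7, 15 were tested, and 0 passed by limma with the stiff matrix (1 at an unadjusted p under 0.05). With IL-4 the zinc importer Slc39a6 (0.40, kept in 6 of 12 fits) and the magnesium transporter Slc41a2 (0.29, kept in 5) rose and Cnnm2 (-0.68) fell, with a median of 0.11. YAP/TAZ, TEAD and their targets, the best-known transcriptional readout of stiffness, were listed together with upstream Hippo pathway genes. Of the 22 gene symbols listed, some of them older and current names of the same gene, 13 were found and 9 were tested. The counts were not split into upstream genes and targets, so that they do not measure YAP/TAZ output. On the stiff matrix 0 passed by limma (1 at an unadjusted p under 0.05), and with IL-4 the upstream Hippo pathway genes Nf2 (-0.54) and Stk4 (-0.32, kept in 8 of 12 fits) fell. The medians were -0.06 and -0.19.

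Of 27 genes of store-operated calcium entry and calcium stores, 21 were tested. With the stiff matrix 0 rose and 2 fell, the sodium-calcium exchangers Slc8a1 (-0.54) and Slc8b1 (-0.34), each kept in 2 of 12 fits, against 3.79% of all genes lower. The median was -0.12. With the replicate block Slc8b1 did not pass (limma adjusted p = 0.0610). With IL-4, 1 rose and 7 fell, against 13.1% of all genes lower, with a median of -0.23. The endoplasmic reticulum calcium binder Calr rose (0.58, kept in 4 of 12 fits). The genes that fell included the store-operated channels Orai1 (-0.33, kept in 3) and Orai2 (-0.85) and their sensors Stim1 (-0.29, kept in 6) and Stim2 (-0.36, kept in 9). With the replicate block Orai1 did not pass (limma adjusted p = 0.0519). Orai2 was called DE in WT BMDM with IL-4 (-1.08, limma adjusted p = 0.0223), from 16.7 and 19.0 TPM in WT soft to 6.96 and 8.90 TPM with IL-4. The call was lost without WT soft 1, WT soft 2, WT soft+IL-4 1 or WT soft+IL-4 2, at log2 fold changes of -1.17, -0.996, -0.93 and -1.24 (limma adjusted p = 0.0794, 0.137, 0.167 and 0.0608).

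Of 22 genes of calmodulin, calcineurin and NFAT, 19 were tested. With the stiff matrix 0 rose and 4 fell, against 3.79% of all genes lower, and the median was -0.21. With IL-4, 1 rose and 8 fell, against 13.1% of all genes lower, and the median was -0.29. The 4 that fell with the stiff matrix were Nfatc2 (-0.64), Camk1d (-0.54, kept in 10 of 12 fits), Camk1 (-0.46) and Nfatc1 (-0.37, kept in 2), transcription factors activated by calcineurin and calmodulin-dependent kinases downstream of CAMKK2, and all 4 also fell with IL-4 (-0.98, -0.79, -0.80 and -0.55). Nfatc2 was the gene of the lists that was called DE most often. It was at 10.1 and 12.4 TPM in WT soft, 10.5 and 12.6 TPM in KO soft, 4.33 and 4.52 TPM in WT stiff, and 10.9 and 10.2 TPM in KO stiff, so that WT stiff stood apart from the other 3 groups. The log2 fold changes were -1.17 for WT stiff against WT soft (limma adjusted p = 0.00137), -1.03 for WT soft+IL-4 against WT soft (limma adjusted p = 0.00273) and 1.09 for KO stiff against WT stiff (limma adjusted p = 0.00392). The adjusted p of all 3 stayed under 0.05 when each library was left out in turn, but the IL-4 value was -0.89 without WT soft 2, no longer DE, and it also missed the fold minimum with median-of-ratios scaling. Without the 3 libraries against their label the limma adjusted p was 0.0770, 0.113 and 0.109 at -1.03, -0.89 and 1.05. With only the groups compared in the model, it was 0.144 for WT stiff against WT soft and 0.264 for KO stiff against WT stiff. Like Trpv2, Nfatc2 was lower in WT stiff than in KO stiff.

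The list counts by adjusted p were no larger without the 3 libraries whose Camkk2 level went against the label. With the stiff matrix 0 genes of any list passed by limma, where 0.563% of all genes did, and at an unadjusted p under 0.05 there were 6 of the calmodulin list, 3 regulators, 2 of the calcium store list, 1 other channel and 0 of the remaining lists. With IL-4, 2 of the 16 regulators and 4 of the 19 genes of the calmodulin list were lower and 0 of the other lists passed, where 7.14% of all genes did. The medians of the calmodulin list were -0.24 and -0.33 in that fit, and those of the calcium store list -0.14 and -0.25.

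**Figure D4:**
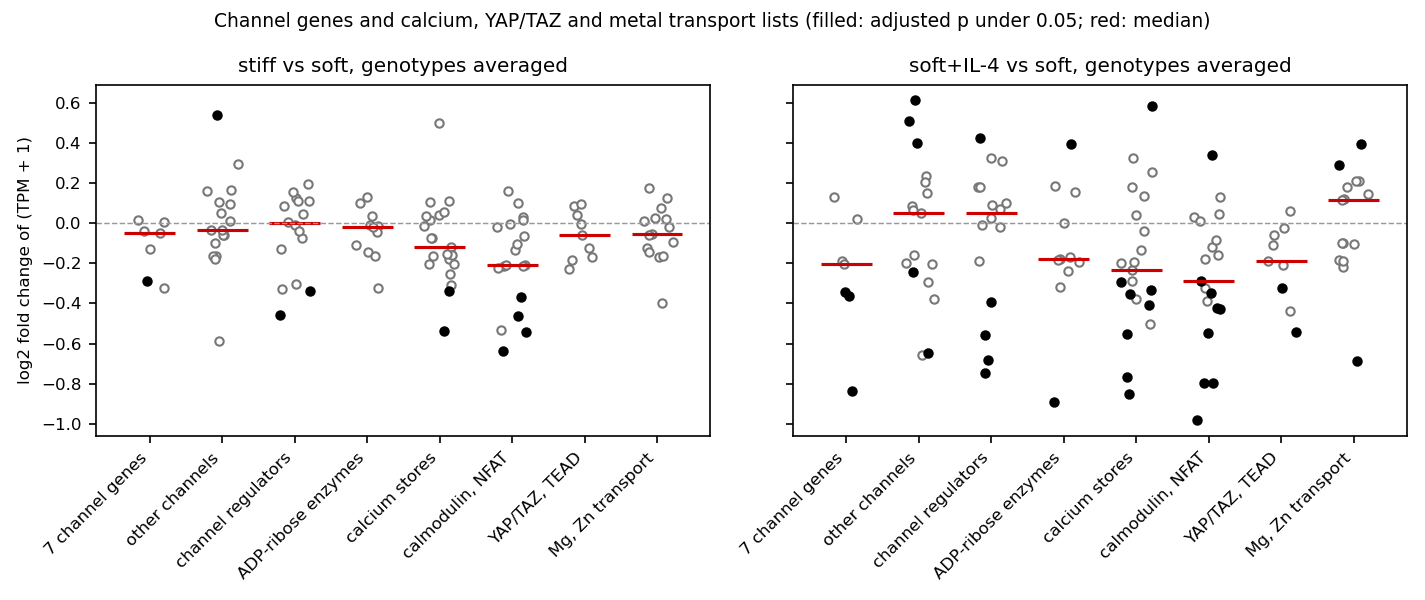
Changes of the channel genes and of 7 lists around them. The y axis is the log2 fold change of TPM + 1 with the genotypes averaged, each point is 1 tested gene, filled points have an adjusted p under 0.05, and red bars are medians. In the calmodulin and NFAT list the median lies at -0.21 for the stiff matrix and -0.29 for IL-4, the lowest of the lists in both panels.

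The genes most like each channel gene over the 12 libraries, among 8598 genes with a mean of at least 5 TPM (8599 for Trpm2), were Coro1a (Pearson r = 0.981) and Evi2b (0.980) for Trpv2, Csf2ra (0.976) and Psmb8 (0.961) for Piezo1, Bach1 (0.976) and Pygb (0.975) for Trpm7, and Rere (0.974) and Nt5dc2 (0.974) for Trpm2. For Trpv4 they were Nxpe5 (0.929) and Ifi44l (0.921), for Tmem63a Ttll1 (0.925) and Smg6 (0.909), and for Tmem63b Mdp1 (0.890) and Usp16 (0.859). These are descriptions with no test, and the 12 libraries share their 6 groups. With the 2 libraries farthest from the median of the channel gene left out, the values for Piezo1 were 0.897 and 0.827, and those for Trpv2 0.974 and 0.968. The number of genes with r over 0.9 was 394 for Trpv2, 287 for Trpm2, 181 for Trpm7 and 77 for Piezo1, but 4 for Trpv4, 2 for Tmem63a and 0 for Tmem63b. Trpv2, Trpm2 and Trpm7, the genes that were lower with IL-4, had the most such neighbours. The same libraries gave both results, and 22.9% of all genes passed with IL-4, so that the neighbours are not a separate finding.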

How the data were processed

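RNA of 12 libraries of BMDM, 2 for each of 6 groups, was measured by poly-A selected, strand-specific sequencing. The authors deposited 1 table of TPM values, and the submitters' processing notes name Trim Galore 0.6.7, Salmon 1.4.0 and mm10, whereas the paper's methods describe STAR, featureCounts and DESeq. TPM are not counts, so limma 3.58.1 in R 4.3.3 replaced the count model of the study's methods. Groups came from the sample titles, and 0 columns were left unused. The test ran on log2(TPM + 1) of genes that reached 1 TPM in 2 or more libraries, with all 12 libraries, a mean per group, no covariates, eBayes with a trend, and Benjamini-Hochberg adjustment over the 11194 genes within each of 13 comparisons. P-values measure the spread between the 2 libraries of a group, pooled over the 6 groups. The tests were checked on simulated data. The 7 genes and the lists were chosen with earlier results of these data known. Named are the 7 genes, the 2 genes most correlated with each, and list genes called DE, and the other list genes were chosen after their values were seen. Gene positions are from GENCODE vM21 (GRCm38) and promoters from RefSeq (GRCm38.p6). Alternatives were another pseudocount, no filter, median-of-ratios scaling, only the groups compared, the replicate number as a block, other call rules, and libraries left out.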

Additional observations from a re-analysis of the deposited data

How the results depend on the processing

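Under the DE rule the count of channel genes was 0 in all 13 comparisons and stayed 0 under every alternative but these. With no minimum fold change it was 1 for WT stiff against WT soft, 1 for KO soft+IL-4 against KO soft, 1 for KO stiff against WT stiff, 1 for the averaged stiff and 3 for the averaged IL-4 comparison, and with a pseudocount of 0.1 TPM it was 1 for averaged IL-4 (Trpm2). Trpm2 was also called there with 0.5 TPM (-1.16), a pseudocount chosen after seeing the data because of the low level of Trpm2. The count with no minimum fold change, an alternative chosen after seeing the data, fell to 0 in all of these 5 comparisons without the 3 libraries against their Camkk2 label. In this fit WT soft, KO soft and KO stiff keep 1 library each, which is assumed to vary like the other groups. The count was also 0 with only the groups compared in the model for WT stiff against WT soft and KO stiff against WT stiff. In both, 0 of all genes tested passed. For averaged stiff it was 0 as well, where 279 of all genes passed. With median-of-ratios scaling it was 0 for averaged stiff (630 of all genes) and for KO stiff against WT stiff (516). With no filter it was 2 for KO soft+IL-4 against KO soft (1059 of 14098 genes), and Trpm7 lost its averaged IL-4 call. With each library left out in turn, the count of channel genes fell in some fits of all 5 comparisons. In other fits it rose for some of them. The number of all genes that passed varied between these fits as well.

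Without the 3 libraries, the log2 fold change reversed for Trpv4 with IL-4 (-0.15, averaged), Tmem63a (-0.0083) and Tmem63b (-0.14) on the stiff matrix (averaged), Trpm2 in KO stiff (0.016) and Trpv4 in KO soft against WT soft (0.79). None of these 5 had passed the test, and the cause was not tested. With each library left out in turn, values that changed sign ranged, for the averaged stiff comparison, from -0.28 to 0.020 (Piezo1), -0.38 to 0.28 (Trpv4), -0.15 to 0.069 (Trpm7), -0.064 to 0.078 (Tmem63a) and -0.095 to 0.13 (Tmem63b), and from -0.31 to 0.35 for Trpv4 with IL-4. They ranged from -0.27 to 0.16 for Trpm7 and from -0.52 to 0.084 for Piezo1 in WT stiff, from -0.098 to 0.054 for Trpm7 in KO stiff, from -0.017 to 0.59 for Trpm2 in WT stiff against WT soft+IL-4, from -0.87 to 0.46 for Trpv4 in KO soft against WT soft and from -0.13 to 0.63 in KO stiff against WT stiff. No value of a gene that had passed reversed.

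The replicate numbers did not pair the samples in most groups. Same-numbered deviations correlated over 0.1 in 3 of 15 pairs of groups (0.314 for WT soft and KO soft, 0.283 for WT soft and KO stiff, 0.307 for KO soft and KO stiff), and the lowest was -0.05. These pairs join the groups that hold a library against its label. In them Camkk2 was at 44.2, 46.6 and 37.7 TPM in library 1 and 11.7, 11.5 and 10.0 TPM in library 2 (WT soft, KO soft and KO stiff). A link between these correlations and Camkk2 was not tested. With the replicate block no count of channel genes changed (of the list genes named, Lrrc8d, Orai1 and Slc8b1 lost their call), and the limma adjusted p with IL-4 was 0.00349 for Trpv2, 0.0469 for Trpm7 and 0.0193 for Trpm2. Over all genes, 724 passed in the averaged stiff comparison with no minimum fold change, 279 with only the groups compared and 63 without the 3 libraries, and with IL-4 2567, 3761 and 799. Without WT stiff 2, 2295 passed in the averaged stiff comparison, 1785 in the interaction of genotype and stiffness (109 with all libraries) and 3035 for WT stiff against WT soft+IL-4 (0 with all libraries). Depth is unknown in TPM, so the precision of Trpm2 near 1 TPM cannot be given.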
